A study of Mus musculus with 6 samples.

Results

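The MHC class II genes and the invariant chain were followed across 6 libraries of mouse CD4+ T cells from a study of sorafenib, an inhibitor of several protein kinases. They are 10 genes of the 21362 in the count table, chosen by name: Cd74, Ciita, H2-Aa, H2-Ab1, H2-Eb1, H2-DMa, H2-DMb1, H2-DMb2, H2-Oa and H2-Ob. The series title and design text speak of sorafenib-treated regulatory T cells and of cells without sorafenib, but the label of each library gives a running number and the cell type only. The sources used here give no dose, time, age or strain, and no mouse or culture is named for any library. No library could be placed in a treated or an untreated group, so the libraries, called 1 to 6 after their titles, are described one by one and no test between conditions was made. The family was proposed with earlier results of these data in view, so its levels and ranges are a description. Values in a series run from library 1 to library 6.

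MHC class II molecules are pairs of an alpha and a beta chain that display peptides to the receptor of CD4+ T cells. They are made above all by B cells, dendritic cells and macrophages, and conventional mouse T cells are generally held to make little of them. New pairs assemble with the invariant chain, the product of Cd74, which blocks the groove and steers the complex to endosomes, where H2-DM exchanges its remnant for peptide and H2-O restrains H2-DM. The co-activator Ciita switches the family on through factors bound to paired elements, the X and Y boxes, in the promoters.

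The libraries held between 32435799 and 36316162 counted reads. Levels are given as CPM, the reads of a gene relative to the library total after TMM scaling for library composition, and 95% intervals are exact and cover counting error only. All 11 T cell markers had a mean of 1 CPM or more, with Cd3e between 200.3 and 218 CPM, Cd4 between 412 and 482 CPM and Cd28, the most abundant, between 507 and 848 CPM. From library 1 to 6 the 11 summed to 3704, 3654, 3549, 3092, 3108 and 3185 CPM, lowest in libraries 4, 5 and 6. Cd28 was also lowest there, but Cd4 and Lat were highest there. In bulk RNA, more cells of a type and more RNA per cell cannot be told apart.

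H2-Ab1, the beta chain of the I-A molecule, was the most abundant member. It stood at 202.2, 203.6, 204.5, 136.5, 136.7 and 141.7 CPM, from 6282, 7042, 7130, 5177, 4756 and 5039 reads. It was lowest in libraries 4, 5 and 6, and its 95% intervals were apart in 9 of the 15 library pairs. The range, highest over lowest library, was 1.50-fold. All ranges are taken from log2 CPM after adding a prior count of 2.

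H2-Aa, the alpha chain that pairs with H2-Ab1 to form I-A, was scarce and was high where H2-Ab1 was low. Its levels were 2.19, 3.15, 2.90, 4.88, 6.41 and 7.23 CPM, from 68, 109, 101, 185, 223 and 257 reads. Libraries 4, 5 and 6 were the highest, library 1 was the lowest, and the range was 3.24-fold.

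The genes can be compared with each other only per length, in the deposited FPKM values. On that scale the median level of H2-Ab1 was 143 FPKM, which placed it at rank 331 of the 21362 genes, and that of H2-Aa was 3.60 FPKM, at rank 7729. The FPKM ratio of H2-Ab1 to H2-Aa was 87.3 (95% interval 68.8 to 113), 61.1, 66.7, 26.5, 20.2 and 18.5 (16.4 to 21.1). The partner chains were thus unequal at the RNA level in every library, and the ratio differed 4.71-fold between library 1 and library 6. A ratio within 1 library does not depend on how libraries are scaled to each other.

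**Figure D1:**
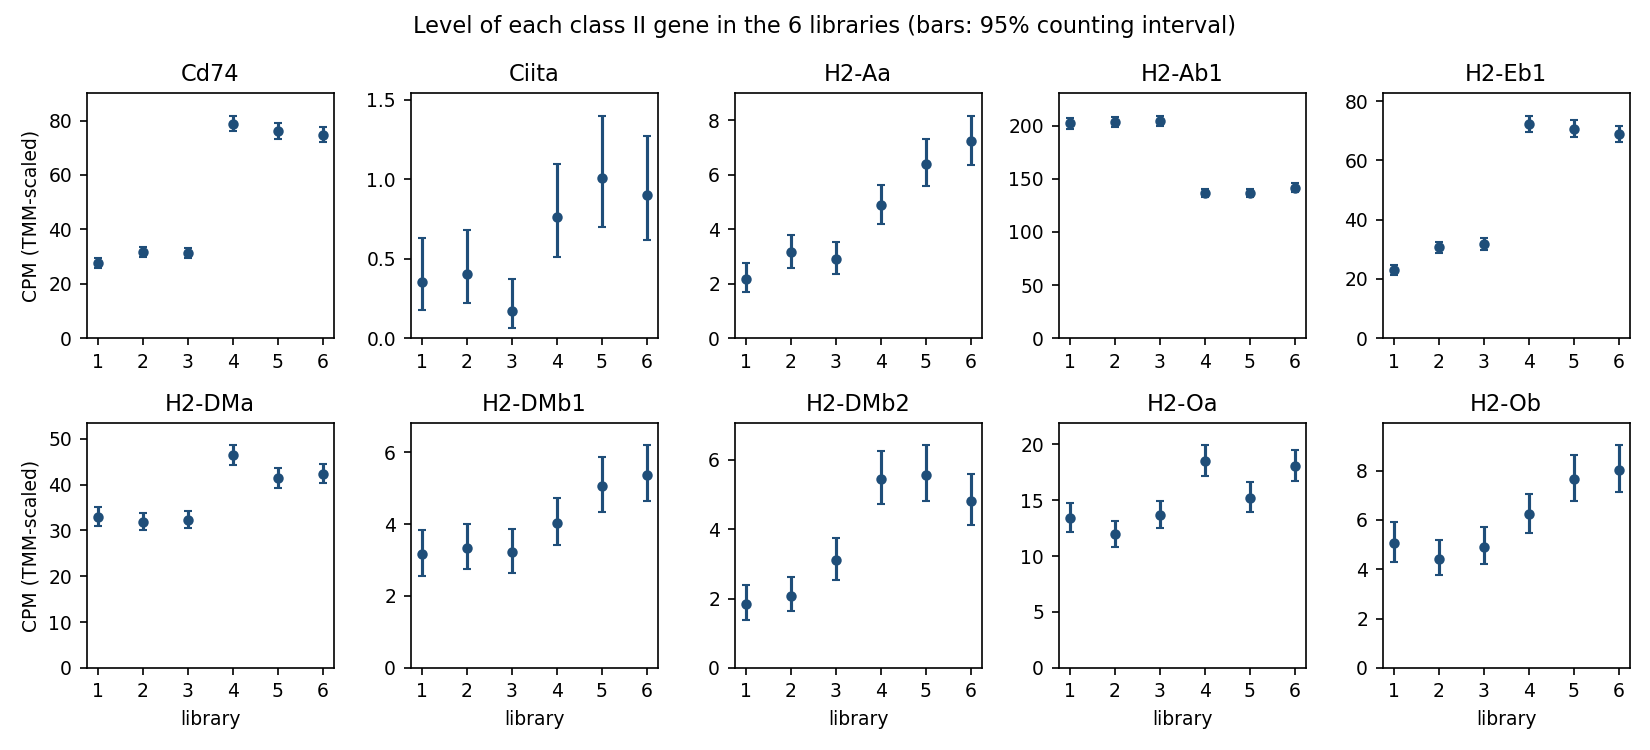
Level of each of the 10 genes in CPM (vertical axes, each from 0) in libraries 1 to 6 (horizontal axes); points are single libraries and bars are 95% counting intervals. H2-Ab1 is lowest in libraries 4, 5 and 6, while the other 9 genes are highest there.

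H2-Eb1, the beta chain of the I-E molecule, stood at 22.98, 30.6, 31.8, 72.3, 70.7 and 68.9 CPM. Libraries 4, 5 and 6 were high and did not differ from each other beyond their intervals, and library 1 lay below libraries 2 and 3. The range was 3.14-fold, or 2.36-fold without library 1. The alpha chain of I-E was not analysed here. H2-Eb2, a further beta chain gene of the region, had from 2 to 4 reads in each library.

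Cd74, the invariant chain, followed H2-Eb1 closely. It stood at 27.7, 31.8, 31.3, 78.9, 76.0 and 74.8 CPM, and its 95% interval was 25.9 to 29.6 CPM in library 1 against 76.1 to 81.8 CPM in library 4. Its range was 2.85-fold, and 2.52-fold without library 1. Per length, Cd74 had a median of 38.1 FPKM and H2-Eb1 one of 30.5 FPKM, and their FPKM ratio stayed between 1.16 and 1.42 over the 6 libraries. H2-Ab1 exceeded Cd74 on the same scale in every library, by ratios of 8.66, 7.60, 7.75, 2.05, 2.13 and 2.25.

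**Figure D2:**
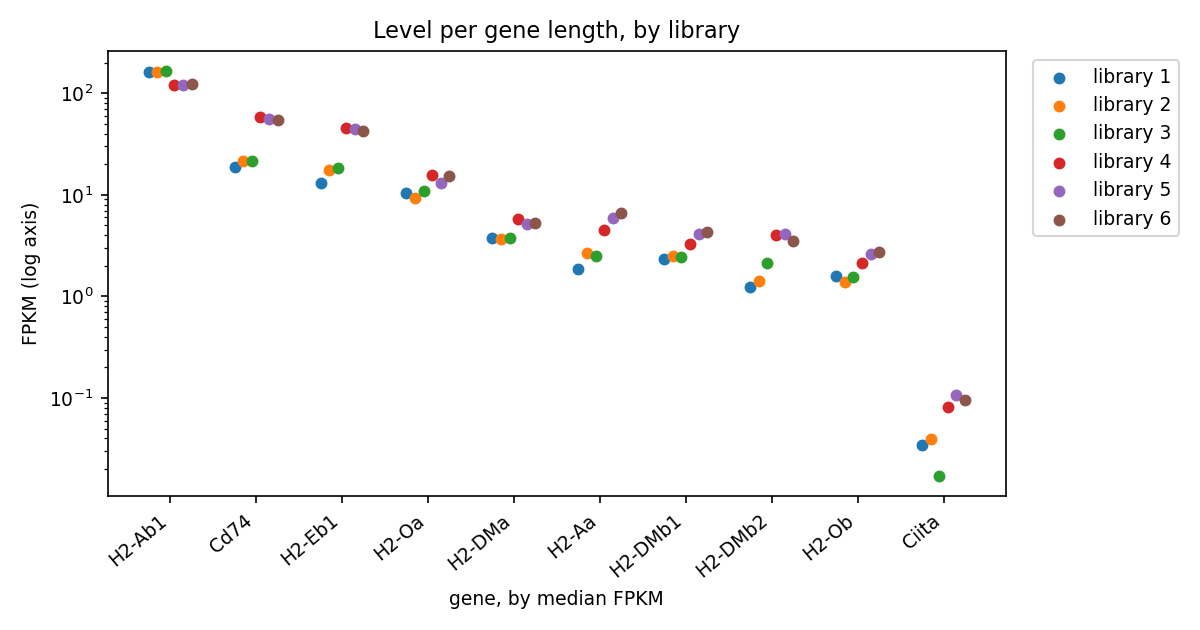
FPKM of each gene (vertical log axis) with 1 point per library, genes ordered by their median FPKM. H2-Ab1 lies above Cd74 and H2-Eb1 in every library, and H2-Aa lies far below its partner H2-Ab1.

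The reads of the 10 genes together came to 299, 310, 317, 390, 382 and 385 CPM over the plain library totals. Their division among the genes differed more than their sum. H2-Ab1 took 64.8%, 63.0% and 62.4% of the class II reads in libraries 1, 2 and 3, and 36.5%, 37.4% and 38.1% in libraries 4, 5 and 6. Cd74 took 8.88% (95% interval 8.32% to 9.46%) in library 1 and 21.1% (20.4% to 21.8%) in library 4. H2-Eb1 took 7.37% and 19.3% in the same libraries. H2-Ab1 thus held most class II reads in libraries 1, 2 and 3 and under 40% of them in the others, a statement that needs no scaling between libraries.

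**Figure D3:**
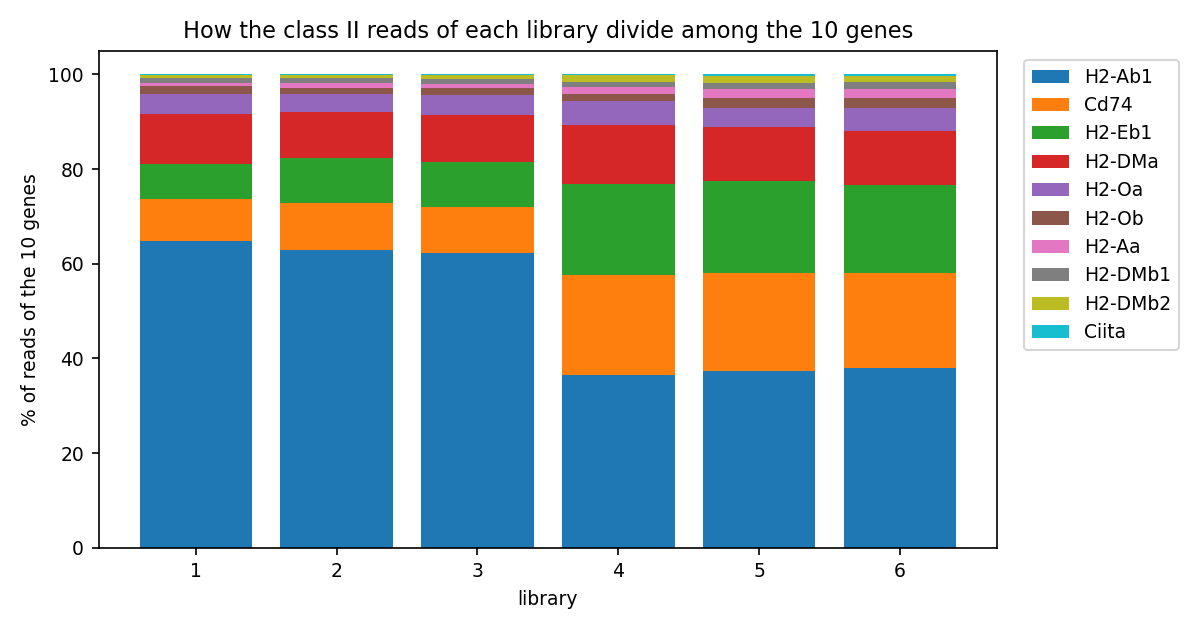
Stacked bars of the percentage of class II reads (vertical axis) that each of the 10 genes took in each library (horizontal axis). The H2-Ab1 block is 62.4% or more in libraries 1, 2 and 3 and 38.1% or less in libraries 4, 5 and 6, and Cd74 and H2-Eb1 fill most of the difference.

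H2-DM, the peptide exchange factor, is a pair of H2-DMa with H2-DMb1 or H2-DMb2. H2-DMa stood at 32.96, 31.9, 32.4, 46.4, 41.4 and 42.4 CPM, a range of 1.45-fold. It was high in libraries 4, 5 and 6. In the GENCODE M21 annotation its exons overlap those of Brd2 on the opposite strand, and no source used here states the strand setting of the counting, so reads of the overlap cannot be assigned with certainty. Brd2, a bromodomain gene, ranged 1.09-fold, from 314 to 342 CPM. The deposited FPKM values imply a length of 8325 bases for H2-DMa and 1193 for H2-Ab1, so the H2-DMa median of 4.49 FPKM rests on a long gene model.

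The H2-DM beta genes differed in range. H2-DMb2 stood at 1.83, 2.08, 3.10, 5.46, 5.58 and 4.81 CPM, a range of 2.98-fold, and H2-DMb1 at 3.15, 3.32, 3.21, 4.03, 5.06 and 5.37 CPM, a range of 1.69-fold. Both were highest in libraries 4, 5 and 6. The FPKM ratio of H2-DMb1 to H2-DMb2 ran from 0.812 in library 4 to 1.89 in library 1. The pair are close copies. Of the distinct 50-base words in H2-DMb1 transcripts, 22.7% also occur in H2-DMb2, and 21.2% of those of H2-DMb2 occur in H2-DMb1, so part of their reads may have been split or left uncounted.

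H2-O, which restrains H2-DM, is a pair of H2-Oa and H2-Ob and is best known from B cells. H2-Oa stood at 13.4, 11.9, 13.7, 18.5, 15.2 and 18.1 CPM, a range of 1.55-fold. H2-Ob stood at 5.05, 4.42, 4.90, 6.22, 7.65 and 8.04 CPM, a range of 1.81-fold. For both genes libraries 4, 5 and 6 were the highest, and their 95% intervals were apart in 9 and 8 of the 15 library pairs. H2-Oa shares 15.5% of its 50-base words with BC051537, a gene on the opposite strand.

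Ciita, the co-activator of the family, was at the edge of detection. It had 11, 14, 6, 29, 35 and 32 reads, or 0.354, 0.405, 0.172, 0.765, 1.01 and 0.900 CPM. Library 3 had a 95% interval of 0.0632 to 0.375 CPM and library 5 one of 0.701 to 1.40 CPM, and intervals were apart in 5 of the 15 library pairs. Libraries 4, 5 and 6 had the most reads. Part of Ciita overlaps Dexi on the opposite strand, with which it shares 1.46% of its 50-base words.

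Of the 10 members, 9 reached a mean of 1 CPM, each of them in every library, and Ciita did not. Cd74, H2-Aa, H2-Eb1 and H2-DMb2 ranged 2-fold or more, which is 4 of 9, beside 10.5% of all 11516 genes at that mean. The median range of the 9 was 1.81-fold and that of all genes 1.29-fold. The members were chosen with such ranges known, so these figures describe the family and support nothing further. With a mean of at least 5 CPM the count was 2 of 6 members, Cd74 and H2-Eb1, beside 4.69% of genes.

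Promoter sequence is shown here because the paired X and Y elements are what class II promoters are known to share. Windows of 300 bases, 250 before and 50 after the annotated start, were taken from RefSeq on GRCm38.p6, an older build than that of the counts, and 7 of the 10 members matched. Cd74, Ciita and H2-Ab1 had no entry. The Y core was searched as CCAAT, the X core as TAGNAAC and the X2 element as TGACG, each on both strands, and they are held by 37.4%, 11.4% and 20.8% of all 32851 windows. The windows below are 60 bases long, run in the direction of the gene and are lined up on the Y core. Capitals mark the letters that matched, and the Y core reads ATTGG because it lies on the reverse strand.
H2-Eb1: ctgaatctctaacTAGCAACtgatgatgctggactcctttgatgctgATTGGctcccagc
H2-DMb1: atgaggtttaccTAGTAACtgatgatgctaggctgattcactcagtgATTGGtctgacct
H2-DMb2: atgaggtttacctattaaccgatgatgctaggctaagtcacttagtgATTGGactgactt
H2-Ob: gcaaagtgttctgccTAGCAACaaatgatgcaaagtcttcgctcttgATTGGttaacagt
H2-Aa: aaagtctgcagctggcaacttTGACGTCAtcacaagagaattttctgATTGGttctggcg
H2-Oa: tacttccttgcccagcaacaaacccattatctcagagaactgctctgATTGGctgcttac

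On GRCm38.p6 these stretches lie at chr17:34305761-34305820 (H2-Eb1, plus strand), chr17:34153083-34153142 (H2-DMb1, plus), chr17:34145112-34145171 (H2-DMb2, plus), chr17:34238801-34238860 (H2-Ob, plus), chr17:34287859-34287918 (H2-Aa, minus) and chr17:34092289-34092348 (H2-Oa, plus). In the same order the Y core began 59, 61, 90, 57, 48 and 43 bases before the annotated start. A reverse Y core between 100 and 30 bases before the start was thus present in 6 of the 7 matched members, and in 8.56% of all windows. H2-DMa was the exception in both of its windows. The X core stood 34 bases before the Y core in H2-Eb1, 35 in H2-DMb1 and 32 in H2-Ob, and a forward X core 20 to 40 bases before such a Y core occurs in 14 of all windows, or 0.0426%. H2-Aa held no X core as spelled but a pair of overlapping X2 matches on opposite strands. H2-DMb1 and H2-DMb2, whose ranges differed, have similar stretches, of which only that of H2-DMb1 holds the X core as spelled. These matches describe letters, not bound factors, and the stretch and spacing were set after the sequences were seen.

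The class II genes lie in 1 cluster with genes of the class I pathway, apart from Cd74 and Ciita. In RefSeq order from H2-Oa to H2-Eb1 the table holds 13 protein-coding genes, 8 members and 5 neighbours. The neighbours are Brd2, the peptide transporter genes Tap1 and Tap2, and the immunoproteasome genes Psmb8 and Psmb9. Of the 5 neighbours, 0 ranged 2-fold, beside 10.5% of all genes, and 5 genes are too few to be told apart from that share. Psmb9 ranged 1.40-fold, from 72.96 to 102 CPM, Tap1 1.19-fold and Tap2 1.16-fold. H2-Ab1 and H2-Aa stand next to each other in that order and had opposite libraries on top.

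**Figure D4:**
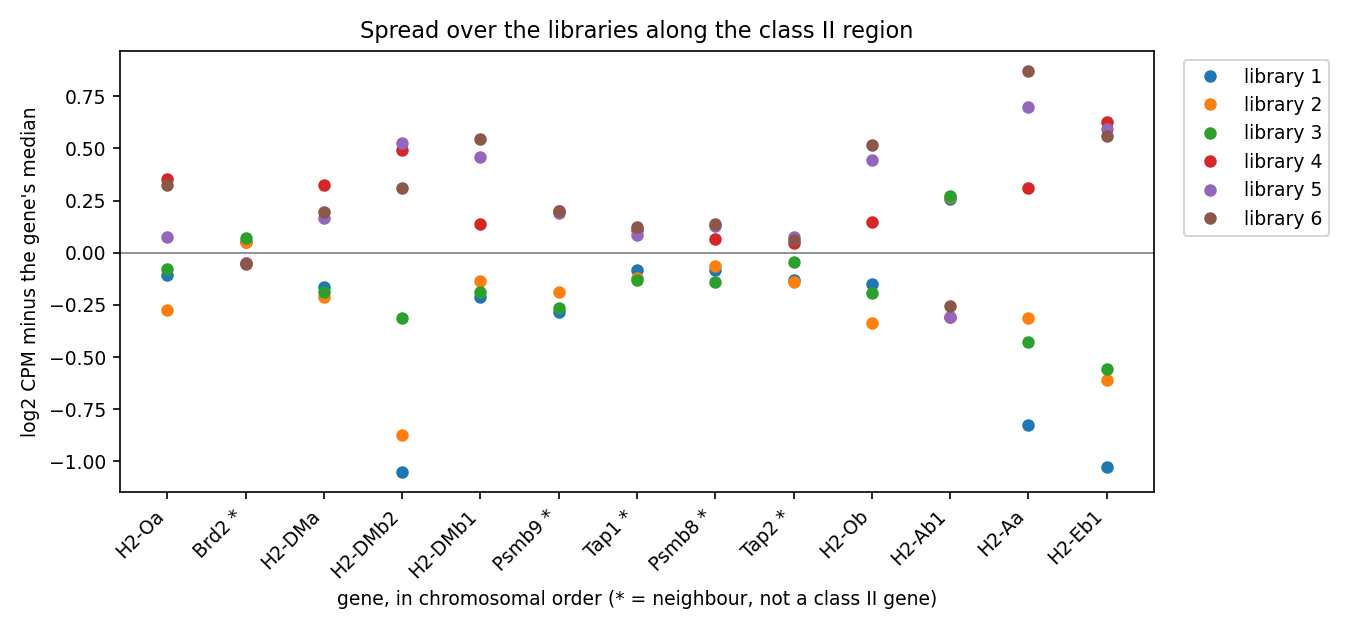
Deviation of log2 CPM from each gene's own median (vertical axis) for the 13 genes in chromosomal order (horizontal axis), 1 point per library; an asterisk marks a neighbour. H2-DMb2, H2-Aa and H2-Eb1 spread widest, Brd2, Tap1, Tap2 and Psmb8 lie near 0, and H2-Ab1 is turned over against H2-Aa and H2-Eb1.

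Of the 7 genes of promoter-binding factors that work with Ciita, all had a mean of 1 CPM or more and 0 ranged 2-fold, beside 10.5% of all genes. Their median range was 1.21-fold and that of all genes 1.29-fold, so the list lay near the background. Nfyb, a subunit of the factor that binds the Y box, was the most abundant, from 163 to 198 CPM. Rfx5, a subunit of the factor that binds the X box, had the largest range, 1.60-fold, at 18.99, 18.7, 19.8, 23.1, 25.96 and 29.9 CPM, and was highest in libraries 4, 5 and 6.

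Of 16 genes that act on Ciita, 14 reached 1 CPM and 0 of these ranged 2-fold, beside 10.5% of all genes. Irf4, a factor of activated lymphocytes, was the most abundant, from 895 to 1050 CPM. Prdm1, which encodes Blimp-1, a repressor of Ciita, had the largest range, 1.69-fold, at 114, 118, 109, 70.8, 69.6 and 74.1 CPM. Its 3 highest libraries were 1, 2 and 3, as for H2-Ab1 and unlike the other members. That order was held by 29.1% of all genes with a mean of 1 CPM or more. A part of Prdm1 in the class II levels was not tested.

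Genes of antigen processing gave 0 of 9 at 2-fold, beside 10.5% of all genes. Ctsd, an endosomal protease gene, was the most abundant, from 248 to 268 CPM. Ifi30, a thiol reductase of endosomes, had the largest range, 1.65-fold, with 22.3, 22.1, 22.97, 32.5, 29.1 and 36.5 CPM. Of the turnover genes, Cd83, which stabilises class II at the surface, ranged from 90.7 to 109 CPM. Marchf1, the ubiquitin ligase that removes class II, had 2, 0, 0, 1, 0 and 6 reads, and a count of 0 allows up to 0.0867 CPM in library 2 by the limit of 3 reads.

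The class I genes and their loading machinery were 18, and 0 ranged 2-fold, beside 10.5% of all genes. H2-K1, a classical class I heavy chain, was the most abundant, from 2370 to 2725 CPM, and H2-M3, a nonclassical class I gene, had the largest range, 1.80-fold. Nlrc5, the class I counterpart of Ciita, stood at 171, 162, 159, 222, 224 and 222 CPM, and was named here after its values were seen.

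Among costimulatory genes of antigen presentation, 1 of 8 ranged 2-fold, near the 10.5% of all genes. It was Cd40, a receptor of antigen-presenting cells, with 25, 30, 19, 66, 55 and 45 reads and a range of 2.98-fold, highest in libraries 4, 5 and 6. Cd274, which encodes PD-L1, was the most abundant, from 169 to 190 CPM.

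Cd74 at the cell surface is also the receptor of the cytokine Mif and works there with Cd44 and chemokine receptors. Mif ranged 1.09-fold, from 512 to 559 CPM. Of the 5 genes of that list with a mean of 1 CPM or more, Cxcr2 and Cxcr4 ranged 2-fold or more, and both were highest in libraries 1, 2 and 3. Cxcr2 stood at 5.05, 5.58, 4.42, 1.16, 1.41 and 1.41 CPM and Cxcr4 at 263, 260, 236, 124, 126 and 134 CPM. Over all these pathway lists, 3 of the 63 genes with a mean of 1 CPM or more ranged 2-fold or more, beside 10.5% of all genes.

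Markers of the cells that usually carry class II were low but not all absent. Of 17 B cell markers, 14 were in the table. The immunoglobulin genes Ighm, Ighd and Igkc were not, so the sums and multiples below leave them out. Of the 5 whose mean was 1 CPM or more, 3 had a 2-fold range, beside 10.5% of all genes. The 14 summed to 10.1, 11.4, 11.1, 15.6, 16.0 and 16.6 CPM, highest in libraries 4, 5 and 6, with a ratio of highest to lowest of 1.65. Cd79a, a chain of the B cell receptor, stood between 0.717 and 1.75 CPM, and Ms4a1, which encodes CD20, between 0.172 and 0.501 CPM. Cd79b, the partner chain, ranged from 1.83 to 3.80 CPM, Cd22 from 0.809 to 2.02 CPM and Cd72 from 2.74 to 4.36 CPM. The markers did not all follow the sum, since Cd72, the most abundant, was lowest in library 4, Ms4a1 was lowest in library 5 and Fcer2a was highest in library 2. Cr2 was at 0 in libraries 1, 2 and 3 and had 1 to 3 reads in the others. Cd74 was 2.75, 2.78, 2.83, 5.06, 4.74 and 4.51 times the summed B cell markers in CPM, so the libraries that were high in one were high in the other, by unequal amounts. H2-Ab1 was 20.1, 17.8, 18.5, 8.76, 8.52 and 8.54 times that sum, lowest in libraries 4, 5 and 6. The part of B cells in the class II levels was not tested.

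Of 16 dendritic cell markers, 13 were in the table and summed to 588, 557, 547, 471, 474 and 497 CPM, lowest in libraries 4, 5 and 6, with most of it from Ccr7, at 282 to 391 CPM, and Cd83, which activated T cells also express. A 2-fold range was seen in 3 of the 9 whose mean was 1 CPM or more, beside 10.5% of all genes. The 8 with a mean under 10 CPM summed to 14.4, 13.6, 14.3, 17.1, 16.8 and 18.6 CPM, highest in those libraries, so the direction depends on which markers are summed. Zbtb46, a factor of classical dendritic cells, ranged from 2.61 to 5.45 CPM and was highest in libraries 4, 5 and 6. Flt3, a growth factor receptor of their precursors, ranged from 0.765 to 1.74 CPM and Itgae from 1.87 to 4.18 CPM, and for both library 4 was the lowest and library 1 the highest. Ccl22 ranged from 5.54 to 9.20 CPM and was highest in libraries 4, 5 and 6. Itgax, which encodes CD11c, stayed at or below 0.316 CPM, and Xcr1 and Siglech were at 0 in all libraries but library 5. Batf3, Fscn1 and Bst2 ranged 1.09-fold, 1.21-fold and 1.19-fold.

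The 16 monocyte and macrophage markers summed to 23.1, 21.6, 24.0, 17.2, 16.6 and 17.7 CPM, lowest in libraries 4, 5 and 6, where Cd74 was highest. Ccr2 was the 1 gene with a 2-fold range among the 3 whose mean was 1 CPM or more, beside 10.5% of all genes. Most of the sum came from Ccr2 and Cd68. Ccr2 stood at 11.3, 9.77, 9.18, 5.01, 4.63 and 4.27 CPM, lowest in libraries 4, 5 and 6. Cd68 did not follow that order, at 9.24, 8.79, 12.1, 9.02, 8.68 and 9.64 CPM. The direction of the sum thus rests largely on Ccr2. Ly6c2, between 1.18 and 2.28 CPM, was highest in libraries 4, 5 and 6. The defining genes were near 0, with at most 3 reads of Csf1r, 4 of Lyz2 and 13 of Adgre1 in any library, and C1qa had a read in library 6 alone. The part of dendritic cells and of monocytes in the class II levels was not tested. Of 7 markers of CD8 and NK cells, Cd8b1 alone had a mean of 1 CPM or more, from 8.15 to 9.57 CPM, and Cd8a had from 8 to 23 reads. Among markers of innate lymphoid cells, Id2 was the most abundant, from 398 to 604 CPM, and was lowest in library 4.

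**Figure D5:**
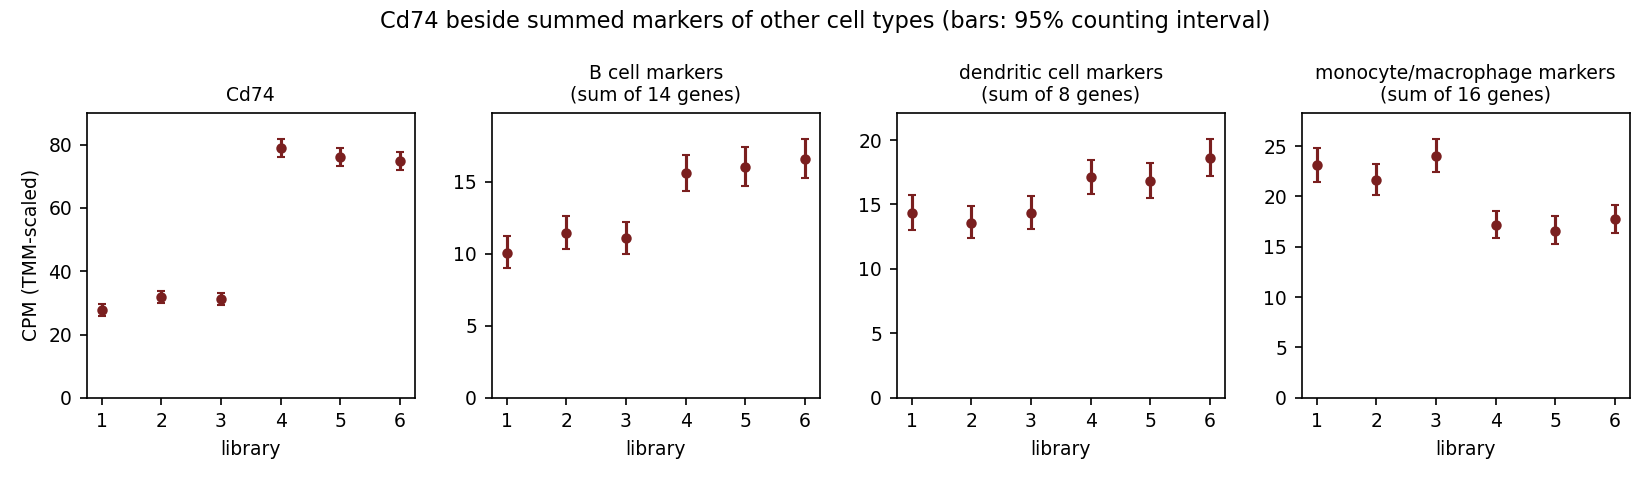
CPM of Cd74 and summed CPM of low markers (mean under 10 CPM) of B cells, dendritic cells and monocytes or macrophages (vertical axes from 0) in libraries 1 to 6; bars are 95% counting intervals. The sums of the B cell markers and of the 8 low dendritic cell markers are highest in libraries 4, 5 and 6. The monocyte sum and the sum of all 13 dendritic cell markers (not drawn) are lowest there. The low of the monocyte sum rests largely on Ccr2.

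Likeness of profile was measured as the root mean square difference between centred log2 CPM values over the 6 libraries, and 8204 genes whose mean was 10 CPM or more were compared. The genes most like Cd74 were Aff3, a nuclear factor gene of lymphocytes, at 0.07, Smc2, a condensin subunit gene, at 0.08, and P2rx7, an ATP receptor gene, at 0.08. Those most like H2-Eb1 were Cd74, at 0.09, Egr3, a factor induced by receptor signals, at 0.10, and P2rx7, at 0.12. Cd74 and H2-Eb1 lay closer to each other than to any other member. They were not the only close pair, since H2-DMa with H2-Oa and H2-DMb1 with H2-Ob lay at 0.08 each.

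H2-Ab1 had other neighbours, Socs3, a feedback inhibitor of cytokine signals, at 0.02, Sdc4, a syndecan gene, at 0.02, and Rabggta, at 0.02. H2-Ab1 and H2-Eb1 differed by 0.95 on that measure. H2-Aa, whose profile rests on 68 to 257 reads per library, lay nearest to Tk1, Brca1 and Cdca2, at 0.09, 0.14 and 0.14. These are genes of DNA synthesis, repair and division. Those of H2-DMb2 were Slc30a1, a zinc transporter gene, Egr3 and H2-Eb1, at 0.14, 0.16 and 0.17. Those of H2-DMb1 were Gmnn, Wdr76 and Rnaseh2b, and those of H2-Ob were Cd84, Gmnn and Slfn9, all within 0.08. Those of H2-DMa were Fam98b, Rell1 and Itga4, and those of H2-Oa were Alg12, Tmem64 and Fndc3b, all within 0.06.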

How the data were processed

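Per the labels' protocols, TRIzol was used to extract total RNA and a VAHTS Universal V5 kit to prepare the libraries. HISAT2, HTSeq, fastp, DESeq2, R 3.2.0 and the build GRCm39 appear without roles in the submitters' processing notes. Which annotation and strand setting were used is not stated in any source used here. For these samples the authors deposited raw read counts per gene and FPKM values, which scale the same reads by gene length and library total and are not separate evidence.

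All 6 libraries are unassigned, so no test was made. Counts were scaled by TMM in edgeR 4.0.16 (R 4.3.3), with factors from 0.958 to 1.04. Against plain totals, TMM shifts libraries by up to 0.12 log2 units relative to each other. Ranges used log2 CPM with a prior count of 2 and a minimum mean of 1 CPM. Intervals are exact Clopper-Pearson at 95%. PCR reads without molecular identifiers are not independent molecules. The range procedure was tested on simulated counts with counting error alone, so that test does not cover other spread between libraries. DESeq2 1.42.0 gave alternative size factors. Python 3.11.15 with pandas 2.3.3 and scipy 1.17.1 was used.

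The members and the 14 other gene lists were chosen with earlier results of these data known. Named genes are all members, the most abundant and most variable gene of each list, markers of class II-bearing cells with a mean of 1 CPM or defining them, and the 3 genes nearest each member, leaving out unnamed models. Shared 50-base words were counted in GENCODE M21 transcripts. The comparison of protein sequences was not run. Some genes the rule names are not reported here.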

Additional observations from a re-analysis of the deposited data

How the results depend on the processing

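The count of members ranging 2-fold or more was 4 with DESeq2 size factors, plain total counts, FPKM, a prior count of 0.5 and without any 1 library, and the 4 genes were the same. It was 5 of 10, with Ciita, without a filter, and 2 of 6 at a mean of 5 CPM, where fewer genes are tested. The share of all genes was 4.69% at 5 CPM, 32.2% without a filter and between 9.03% and 9.48% without 1 library. The 3 highest libraries of all 10 members were the same with each of these scalings. The sum of class II reads differed 1.31-fold between libraries, 1.20-fold over the TMM-scaled total and 1.13-fold without Cd74. Of 105 recomputed member ranges, 95 stayed within the counting interval of the reported value and 10 did not. Many of the 105 could hardly move. A filter leaves a gene's range as it is, and so, nearly, does leaving out a library that is neither its highest nor its lowest. The 10 outside the interval included H2-Ab1 at 1.39-fold and H2-Eb1 at 3.42-fold with plain total counts. Without library 1, their lowest, H2-Aa fell to 2.47-fold and H2-Eb1 to 2.36-fold. In the pathway lists, 3 genes ranged 2-fold with plain total counts and without each library. Depth limits Ciita, with 6 to 35 reads. No paired analysis was possible because the labels give no groups.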

Other observations

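For 9 of the 10 members the 3 highest libraries were 4, 5 and 6, and for H2-Ab1 they were 1, 2 and 3. Between the third and the fourth lowest library, Cd74 stepped from 31.8 to 74.8 CPM, H2-Eb1 from 31.8 to 68.9 CPM and H2-Ab1 from 142 to 202 CPM, with 95% counting intervals apart at the step, as also for H2-Aa, H2-DMa and H2-DMb2. The intervals overlapped there for Ciita, H2-DMb1, H2-Oa, from 13.7 to 15.2 CPM, and H2-Ob. How many of all genes have intervals apart, at this step or over library pairs, was not computed. The members' intervals are thus given without a background. The orders of libraries seen in the members are common among all genes. Among the 11516 genes that reached a mean of 1 CPM, 30.3% were highest in libraries 4, 5 and 6 and 29.1% in libraries 1, 2 and 3. Among the 1204 genes ranging 2-fold or more the shares were 46.9% and 34.1%. The libraries have no known treatment, so these sets are not groups of the study.

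The 14 promoter windows with a forward X core spaced before a reverse Y core belong to 12 gene names, of which 9 are no members. They include Btn2a2, a butyrophilin gene, which stood between 0.0287 and 0.161 CPM. Dnmt1, which encodes the maintenance DNA methyltransferase, stood at 121, 122, 114, 162, 169 and 189 CPM, Fasn, the fatty acid synthase gene, at 141, 139, 136, 168, 171 and 194 CPM, and Akap13, a kinase anchor gene, at 476, 422, 400, 306, 321 and 316 CPM. Mark3, a kinase gene, ranged 1.04-fold, and Trim66, at 1.51, 1.56, 2.55, 2.95, 2.70 and 3.06 CPM, ranged 1.99-fold. Of the others in the table, Gm19911 and H2bc14 had a mean under 1 CPM, as had Btn2a2. These genes were named after their sequences and values were seen.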
